A study of Eublepharis macularius with 4 samples.

Results

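The bone morphogenetic protein (BMP) pathway was followed through its core genes in single cells of adult leopard gecko (Eublepharis macularius) jaws. The set held 9 genes chosen by name: the ligands BMP2, BMP4 and BMP7, the receptors BMPR1A and BMPR2, the secreted antagonist NOG (noggin), and the targets ID1, ID2 and ID3. All 9 were among the 24025 features of the deposited tables. The tissue was jaw soft tissue with oral mucosa, dental lamina and dental mesenchyme, from a lizard whose teeth are replaced for as long as it lives. There were 4 libraries, 2 from animal LG252 and 2 from animal LG255. LG252 pieces were digested warm, at 37 °C for 4 to 5 h with collagenase D (1.5 U/ml) and dispase II (2.4 U/ml), and LG255 pieces cold, at 4 °C for 6 h with Bacillus licheniformis protease (10 mg/ml). Cells of both animals were filtered and sorted live by exclusion of propidium iodide. The labels give no genotype, sex, age in years or drug treatment, and both animals were adult. Animal and digestion changed together and cannot be told apart. The titles of the 2 libraries of an animal carry the tag biolrep, but the labels do not say what separates them. P-values between the animals therefore measure only the spread between these libraries, which may be technical. P-values between cell classes take the 4 libraries as units as well, although these come from only 2 animals.

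BMP ligands are secreted proteins that bind a complex of type I receptors, such as BMPR1A, and type II receptors, such as BMPR2, on the cell surface. The activated complex phosphorylates SMAD1, SMAD5 and SMAD9, which enter the nucleus with SMAD4 and switch on target genes, among them the ID genes. ID proteins bind basic helix-loop-helix transcription factors and keep them from DNA, and NOG binds BMP ligands and keeps them from their receptors. In mouse teeth, BMP signals pass between the dental epithelium and the mesenchyme beneath it. ID genes also respond to other signals, so their transcripts are no direct readout of BMP receptor activity.

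The tables held 8612 cell barcodes, of which 8531 had at least 200 detected genes. A class was given by UMIs (unique molecular identifiers, each standing for 1 captured transcript) of marker genes. Epithelial cells had at least 10 UMIs of the keratin-type locus LOC129339097, and mesenchymal cells at least 5 of COL1A1, COL1A2, DCN and LUM. Endothelial cells had at least 3 of CDH5, TIE1, EGFL7, VWF, TEK and KDR, and immune cells at least 3 of PTPRC, CORO1A, RAC2, CD79A and CD79B. A single gate was passed by 5882 cells, no gate by 2526 and several by 123. Libraries shared 2 to 8 barcodes with each other. Markers that no gate used fitted the gates: the 9 endothelial markers summed to 4907 to 8082 CPM (UMIs scaled to a common class total) in endothelial cells, against at most 562 CPM in any other class, although SOX18 was at 0. The 5 measured epithelial markers summed to 2176 to 2574 CPM in epithelial cells and the 10 mesenchymal ones to 7722 to 10630 CPM in mesenchymal cells. Mesenchymal cells also held 121 to 1031 CPM of 3 measured pericyte or smooth muscle markers, highest in LG252 replicate 1, and Schwann cell markers were at or near 0. The 5 measured immune markers summed to 2195 to 3625 CPM in immune cells. They also reached 664 CPM in the mesenchymal and 1469 CPM in the endothelial cells of LG252 replicate 1, the library with 1782 of the immune cells. Class sums ran from 21888 UMIs (10 endothelial cells of LG255 replicate 2) to 8089192 UMIs (885 epithelial cells of the same library). Mesenchymal cells numbered 389 and 788 in LG252, against 19 and 106 in LG255 (replicates 1 and 2). Endothelial cells numbered 16 and 59 in LG252, against 20 and 10 in LG255. Immune cells numbered 1782 and 154 in LG252, against 20 and 17 in LG255. The small sums set the precision of every value below: 3 UMIs, taken as the limit that a count of 0 allows, equal 137 CPM in endothelial cells of LG255 replicate 2. Such limits cover counting error only. Each transcript was counted at its 3′ end, and levels are compared between cells, not between genes.

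The ligands differed in where they were found. BMP4 was in mesenchyme and, in LG252, in endothelium, but almost missing from epithelium, BMP7 was at like levels in epithelium and mesenchyme, and BMP2 was in both but in the epithelium far higher in LG252. In LG252, immune cells held almost none of the 3. The LG255 immune sums held none, but 3 UMIs equal 24.5 and 38.2 CPM there, which limits what these counts of 0 show. BMP4 (chromosome 2, 7332190 to 7337441, assembly MPM_Emac_v1.0) is a ligand made by dental mesenchyme in mouse teeth. Epithelial cells had 0.430 and 2.90 CPM of BMP4 in LG252 and 0.296 and 0.247 CPM in LG255. Mesenchymal cells had 29.8 and 81.5 CPM in LG252 and 0 and 42.6 CPM in LG255. The library at 0 held 19 mesenchymal cells, where 3 UMIs equal 27.5 CPM, and in the other 3 libraries the epithelium was below the mesenchyme. The epithelial sums were lower than the mesenchymal ones by a log2 fold change of -5.06 (SE 0.55, n = 4 libraries, edgeR adjusted p = 1.25e-07), and all 13 alternative settings kept this call. Endothelial cells had 103 and 43.1 CPM of BMP4 in LG252 and none in LG255, a total of 18 UMIs. The pooled LG252 level was at least 1.94-fold higher than 3 pooled UMIs in LG255. Epithelial against endothelial cells gave -4.52 (SE 0.76, edgeR adjusted p = 8.65e-05), lower in the 2 LG252 libraries. The LG255 endothelial counts of 0, where 3 UMIs equal 34.4 and 137 CPM, give no direction. Endothelial against mesenchymal cells gave -0.54 (SE 0.66, edgeR adjusted p = 0.664), which did not pass. The 10 mesenchymal markers summed to 308 to 914 CPM in endothelial cells, and their part in the BMP4 value was not tested. Immune cells gave 2 UMIs of BMP4 in all, both in LG252. Mesenchymal against immune cells reached 6.92 (SE 0.88, edgeR adjusted p = 1.15e-06) and endothelial against immune cells 6.38 (SE 1.06, adjusted p = 9.22e-05).

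BMP7 (chromosome 5, 154543986 to 154634969) is a ligand of the same family that can pair with BMP2 or BMP4. It had 20.8 and 24.9 CPM in LG252 epithelium and 21.9 and 17.3 CPM in LG255 epithelium. In mesenchymal cells it had 15.4 and 32.1 CPM in LG252 and 9.18 and 25.6 CPM in LG255. The epithelial values lay inside the mesenchymal range, and the difference of 0.34 (SE 0.35, edgeR adjusted p = 0.516) did not pass. Endothelial cells gave 1 UMI of BMP7 in all, in LG255 replicate 1, where their value was above the mesenchymal one. Only LG252 replicate 2, with no endothelial UMI, was deep enough to show the endothelium below both other classes. LG252 replicate 1, where 3 UMIs equal 51.3 CPM, gives no direction. The same holds for LG255 replicates 1 and 2, where 3 UMIs equal 34.4 and 137 CPM. The pooled ratio of epithelial to endothelial CPM was 9.27 (95% counting interval 1.66 to 367) and the call passed in edgeR (adjusted p = 0.00206). Endothelial against mesenchymal cells gave -3.63 (SE 0.96, edgeR adjusted p = 0.0109). That call was lost with the DESeq2 Wald test (adjusted p = 0.0539) and with doubled gates (adjusted p = 0.0602). Immune cells gave 5 UMIs in all, none of them in LG255, where 3 UMIs equal 24.5 and 38.2 CPM. The LG255 values of epithelium and mesenchyme lay under these limits, so the LG255 libraries give no direction by themselves. Epithelial against immune cells reached 5.11 (SE 0.61, edgeR adjusted p = 3.74e-07) and mesenchymal against immune cells 4.76 (SE 0.64, adjusted p = 2.55e-06).

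BMP2 (chromosome 1, 34064346 to 34077271) is the closest relative of BMP4 among the ligands. Epithelial cells had 60.7 and 55.5 CPM in LG252, against 7.68 and 5.07 CPM in LG255. Mesenchymal cells had 29.8 and 60.4 CPM in LG252, against 9.18 and 32.0 CPM in LG255. The libraries of the 2 animals were far apart in epithelium and overlapped in mesenchyme. Epithelial against mesenchymal cells gave -0.03 (SE 0.44, edgeR adjusted p = 0.978), and the epithelium was higher in 1 of 4 libraries, LG252 replicate 1. Endothelial cells had 8 UMIs of BMP2 and immune cells 3. The ratio of epithelial to immune CPM, pooled over all libraries, was 92.4 (95% counting interval 31.5 to 449). For mesenchymal to immune CPM it was 142 (47.9 to 691). Such pooling ignores library and animal, and all 3 immune UMIs came from LG252. In LG255, 3 pooled immune UMIs equal 14.9 CPM. The pooled LG255 epithelial level, 5.84 CPM, lay under this limit and gives no direction, and the mesenchymal level, 27.7 CPM, lay above it. The size of these differences depends on leaving out cells of several gates. With such cells kept, epithelial against immune cells fell to a log2 fold change of 2.83 (adjusted p = 0.00150), against 6.96 without them, and mesenchymal against immune cells to 3.04 (adjusted p = 0.00119), against 6.99. Endothelial against immune cells then lost its call (1.57, adjusted p = 0.272), against 5.51 (SE 1.27, edgeR adjusted p = 0.00241). The immune differences of BMP7 shrank as well, to 3.75 in epithelium and 3.43 in mesenchyme, and stayed past the threshold.

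**Figure D1:**
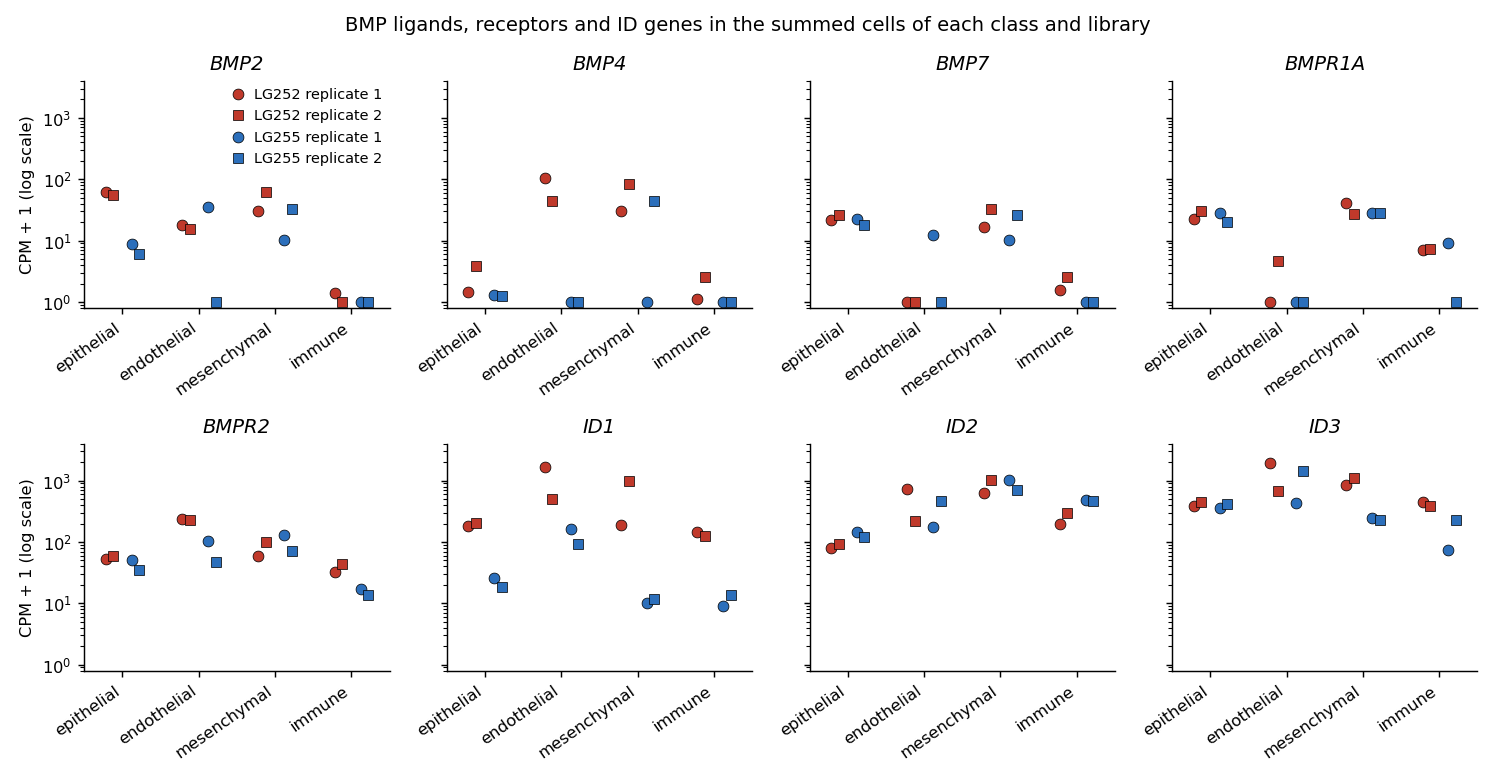
Level of each gene on a log axis (CPM + 1) in epithelial, endothelial, mesenchymal and immune cells, summed per library, with 1 point per library; LG252 is red and to the left, LG255 blue and to the right. ID1 is lower in LG255 than in LG252 in all 4 classes, BMP2 separates the animals in epithelial cells, and BMP4 is near the floor in epithelial and immune cells; NOG had no UMI and is not drawn.

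Of the receptors, BMPR1A was shared by epithelium and mesenchyme and almost missing from endothelium, and BMPR2 was found in every class. BMPR1A (chromosome 6, 142139642 to 142245356) encodes a type I BMP receptor. Epithelial cells had 21.4 and 29.2 CPM in LG252 and 27.5 and 19.0 CPM in LG255. Endothelial cells had 0 and 3.59 CPM in LG252 and none in LG255, a single UMI among 105 cells. Mesenchymal cells had 39.7 and 26.4 CPM in LG252 and 27.5 and 27.7 CPM in LG255. The endothelial value was below both other classes in each library, but only LG252 replicate 2 was deep enough to show it. A count of 0 in LG252 replicate 1, where 3 UMIs equal 51.3 CPM, gives no direction. The same holds for LG255 replicates 1 and 2, where 3 UMIs equal 34.4 and 137 CPM. The pooled ratio to endothelial CPM was 10.4 in epithelium (95% counting interval 1.86 to 412) and 12.9 in mesenchyme (2.28 to 513), and both differences passed in edgeR (adjusted p = 0.000667 and 0.00195). Immune cells had 6.07 and 6.21 CPM in LG252 and 8.16 and 0 CPM in LG255. These LG255 values rest on 1 UMI, and 3 UMIs equal 24.5 and 38.2 CPM in these sums. Epithelial against immune cells gave 2.38 (SE 0.42, edgeR adjusted p = 7.94e-05) and mesenchymal against immune cells 2.31 (SE 0.44, adjusted p = 0.000171).

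BMPR2 (chromosome 2, 233259087 to 233359080) encodes the type II receptor that is best known for its role in the lung vasculature of mammals. Epithelial cells had 52.5 and 58.5 CPM in LG252 and 49.9 and 33.7 CPM in LG255. Endothelial cells had the highest values in LG252, 239 and 230 CPM, and had 103 and 45.7 CPM in LG255. Mesenchymal cells had 57.4 and 99.3 CPM in LG252 and 128 and 70.3 CPM in LG255. These LG255 values were above the endothelial ones, which rest on 10 UMIs in all. In LG255 replicate 2, where 3 UMIs equal 137 CPM in endothelial cells, the endothelial value gives no direction. Immune cells had the lowest values in each library, with 31.8 and 43.5 CPM in LG252 and 16.3 and 12.7 CPM in LG255. The LG255 values rest on 3 UMIs in all, and 3 UMIs equal 24.5 and 38.2 CPM in these sums. Endothelial against immune cells gave 2.04 (SE 0.39, edgeR adjusted p = 0.000453) and mesenchymal against immune cells 1.37 (SE 0.37, adjusted p = 0.00500). Thinned cells lost the endothelial call (1.695, edgeR adjusted p = 0.0511). The mesenchymal call was lost without LG255 replicate 1 (0.92, adjusted p = 0.0898), without LG255 replicate 2 (1.01, adjusted p = 0.0521) and with thinned cells (adjusted p = 0.0995). Epithelial against endothelial cells gave -1.01 (SE 0.35, edgeR adjusted p = 0.0366), lower in each library but LG255 replicate 2, which gives no direction. That call was lost without LG252 replicate 1 (-0.86, adjusted p = 0.107), LG252 replicate 2 (-0.74, adjusted p = 0.358) or LG255 replicate 1 (-0.97, adjusted p = 0.101). No filter (adjusted p = 0.238), doubled gates (0.0674), cells of several gates kept (0.0845), thinned cells (0.555) and no library block (0.0786) lost it too. Epithelial against immune cells gave 1.04 (SE 0.35, edgeR adjusted p = 0.0249), higher in each library but LG255 replicate 2, which gives no direction. That call too was lost on leaving out any of the 4 libraries, with adjusted p between 0.0765 and 0.152. The same held with the size factors (adjusted p = 0.0580) and Wald test (0.0733) of DESeq2. Removing the highest doublet scores (0.0552) and the library block (0.159) also lost it.

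NOG (chromosome 4, 1428399 to 1429094) was listed in all 4 tables and had no UMI in any cell. Over the 47981415 UMIs of all libraries, 3 UMIs equal 0.0625 CPM, a limit on counted UMIs and not on NOG transcripts in the cells. Whether reads from its 3′ end fell inside the annotated gene was not tested, and NOG entered no comparison.

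The ID genes split by animal and by class. ID2 and ID3 were found in every class and library. ID2 was highest in mesenchyme except in LG252 replicate 1, where the endothelium was higher. ID1 was higher in LG252 than in LG255 within each class. ID2 (chromosome 1, 51152430 to 51154574) had 77.9 and 93.5 CPM in LG252 epithelium and 146 and 121 CPM in LG255 epithelium. Endothelial cells had 718 and 223 CPM in LG252 and 172 and 457 CPM in LG255, a spread that rests on 129 UMIs. In mesenchyme it had 620 and 1020 CPM in LG252 and 1009 and 709 CPM in LG255. The epithelial cells were lower in 4 of 4 libraries, with means of 110 ± 30.1 CPM in epithelium and 840 ± 205 CPM in mesenchyme (SD, n = 4 each). The log2 fold change was -2.50 (SE 0.37, edgeR adjusted p = 8.09e-06), and all 13 alternatives kept the call. Immune cells had 198 and 294 CPM of ID2 in LG252 and 482 and 458 CPM in LG255. Epithelial cells were below them in 4 of 4 libraries (-1.36, SE 0.36, edgeR adjusted p = 0.00473). Doubled gates lost that call (-1.02, edgeR adjusted p = 0.06775). The epithelium was the class with the least ID2 in each library.

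Endothelial cells were below the mesenchyme in 3 of 4 libraries (-1.50, SE 0.39, edgeR adjusted p = 0.00854). Without LG252 replicate 2 the value was -1.15 (adjusted p = 0.158), and with the DESeq2 Wald test -1.25 (adjusted p = 0.0502). Epithelial against endothelial cells gave -0.999 (SE 0.39, adjusted p = 0.0645), which did not pass. It passed with the size factors of DESeq2 (-1.34, adjusted p = 0.0212), with the DESeq2 Wald test (-1.35, adjusted p = 0.0175) and without LG255 replicate 1 (-1.19, adjusted p = 0.0451), and was -0.29 (adjusted p = 0.609) without LG252 replicate 1. Mesenchymal against immune cells gave 1.14 (SE 0.36, edgeR adjusted p = 0.0163), higher in 4 of 4 libraries. That call was lost without LG252 replicate 2 (0.96, adjusted p = 0.133) and with the DESeq2 Wald test (0.99, adjusted p = 0.0679).

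ID3 (chromosome 15, 26673893 to 26676834) had 393 and 440 CPM in LG252 epithelium and 351 and 423 CPM in LG255 epithelium, the narrowest spread of any class. In endothelial cells it had 1914 and 675 CPM in LG252 and 424 and 1416 CPM in LG255. In mesenchyme it had 856 and 1121 CPM in LG252, against 248 and 228 CPM in LG255. Immune cells had 451 and 388 CPM in LG252, against 73.5 and 229 CPM in LG255. In mesenchyme and immune cells the LG252 libraries were above both LG255 libraries, and in epithelium they overlapped. Endothelial against immune cells gave 1.42 (SE 0.40, edgeR adjusted p = 0.0116), higher in 4 of 4 libraries. The adjusted p was 0.0985 without LG255 replicate 1 and 0.0933 without LG255 replicate 2. That call was also lost with doubled gates (adjusted p = 0.222), thinned cells (0.264) and no library block (0.153). Epithelial against immune cells gave 1.08 (SE 0.39, edgeR adjusted p = 0.0351), higher in 3 of 4 libraries. Without LG255 replicate 1 it was 0.56 (adjusted p = 0.365), and without LG255 replicate 2 it was 0.84 (adjusted p = 0.184). With the size factors of DESeq2 it was 0.86 (adjusted p = 0.107). The DESeq2 Wald test (adjusted p = 0.139), doubled gates (0.0663) and keeping cells of several gates (0.0809) also lost the call. So did leaving out cells above 20% mitochondrial UMIs (0.0574), removing the highest doublet scores (0.0756) and no library block (0.442). No filter, thinned cells and leaving out either LG252 library kept it.

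ID1 (chromosome 5, 170980222 to 170983270) had 182 and 202 CPM in LG252 epithelium, against 24.5 and 17.6 CPM in LG255 epithelium. Endothelial cells had 1657 and 499 CPM in LG252, against 161 and 91.4 CPM in LG255. Mesenchymal cells had 191 and 1002 CPM in LG252, against 9.18 and 10.7 CPM in LG255. Immune cells had 146 and 123 CPM in LG252, against 8.16 and 12.7 CPM in LG255. Within each animal the endothelium had the highest value in 3 of the 4 libraries, and in LG252 replicate 2 the mesenchyme did. The endothelial value of LG255 replicate 2, 91.4 CPM, lies under the 137 CPM that 3 UMIs equal and gives no direction. Endothelial against immune cells gave 2.75 (SE 0.59, edgeR adjusted p = 0.00129), a call lost with no library block (2.38, adjusted p = 0.220). Epithelial against endothelial cells gave -1.68 (SE 0.52, edgeR adjusted p = 0.0205), lower in each library but LG255 replicate 2, which gives no direction. The adjusted p was 0.201 without LG252 replicate 1 and 0.108 without LG255 replicate 1. That call was also lost with doubled gates (adjusted p = 0.304), thinned cells (0.114) and no library block (0.323). In LG255 the mesenchymal and immune values rest on 6 and 2 UMIs and give no direction between these classes. Mesenchymal against immune cells gave 1.49 (SE 0.56, edgeR adjusted p = 0.0423), higher in both LG252 libraries. That value rested on LG252 replicate 2, without which it was 0.10 (adjusted p = 0.926). The adjusted p was 0.0687 without LG255 replicate 1 and 0.0701 without LG255 replicate 2. Among all alternatives the call was kept only with no filter, with thinned cells and without LG252 replicate 1. It was lost with the others, such as the size factors of DESeq2 (adjusted p = 0.0630), doubled gates (0.0571) and no library block (0.329).

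Over the whole set, the share of members that passed was near that of all genes between epithelium and mesenchyme (25% against 31.6%). In the other 5 comparisons it was above the share of all genes, a description with no test. Of the 8 genes tested, 2 passed between epithelial and mesenchymal cells, where 31.6% of all 8606 genes did. Between epithelial and endothelial cells 5 passed (24.5% of all genes), between epithelial and immune cells 6 (34.9%), and between endothelial and mesenchymal cells 3 (15.5%). Between endothelial and immune cells 5 passed (22.4%), and between mesenchymal and immune cells 7 (35.3%), each of them higher in mesenchyme. The exception was ID3, at 0.92 (SE 0.39, edgeR adjusted p = 0.0674). ID1 passed neither between epithelial and mesenchymal cells (-0.43, SE 0.49) nor between endothelial and mesenchymal cells (1.25, SE 0.54, edgeR adjusted p = 0.133), and without LG252 replicate 2 the second value was 2.88 (adjusted p = 0.000375). The median log2 fold change of all genes was 0.30 for epithelial against endothelial, 0.22 for epithelial against immune and -0.29 for endothelial against mesenchymal cells. Leaving out LG252 replicate 2 lowered the count to 3 both for epithelial against immune and for mesenchymal against immune cells, to 2 for epithelial against endothelial and to 1 for endothelial against mesenchymal cells. In these fits BMP7 and BMPR1A were no longer tested, and the 1 call between endothelial and mesenchymal cells was ID1. Without LG252 replicate 1 the count was 2 for epithelial against endothelial cells.

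**Figure D2:**
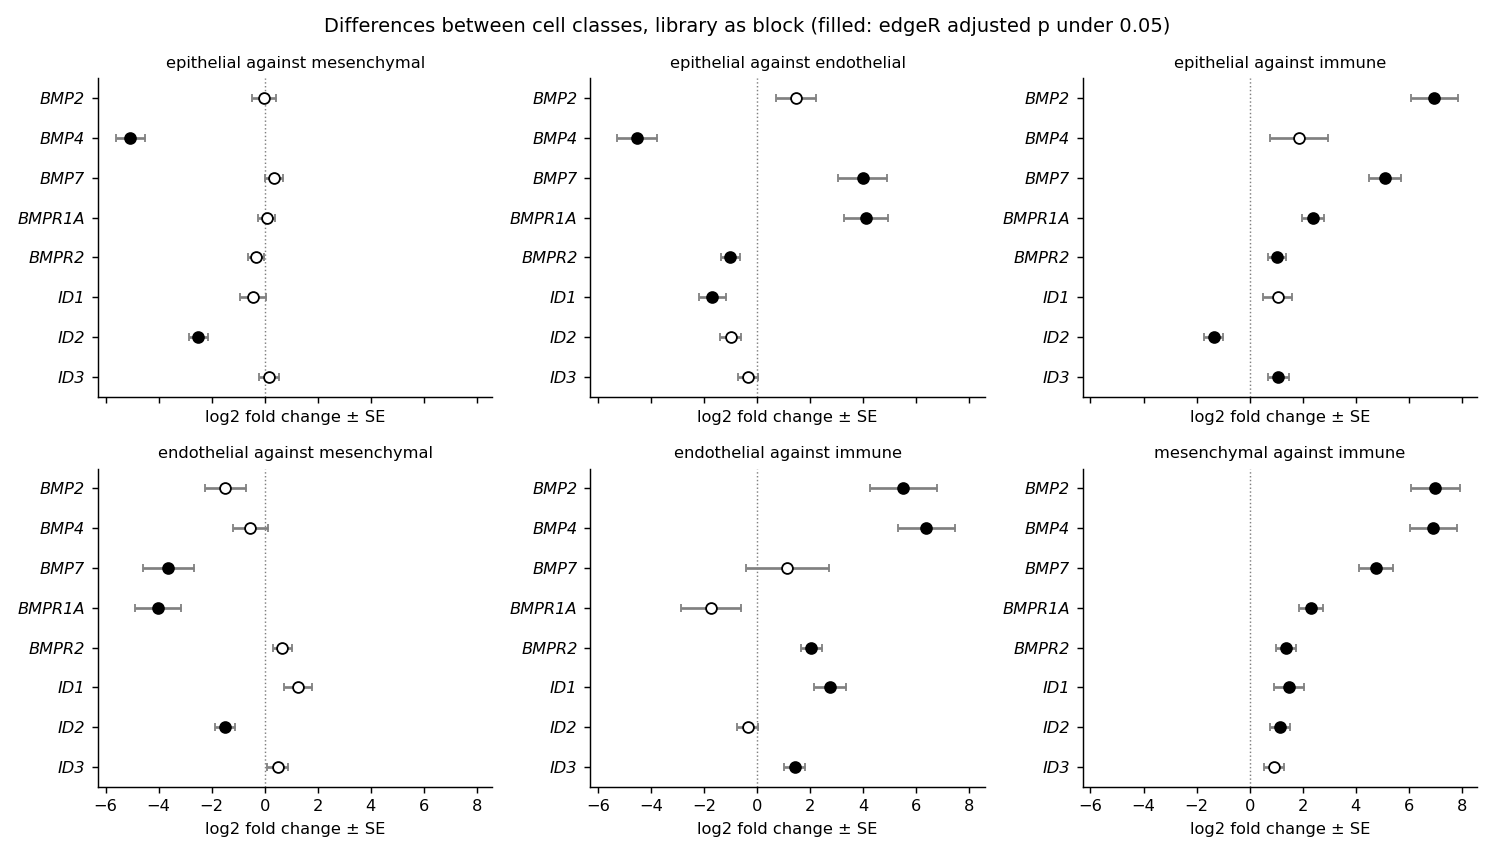
Log2 fold changes (first class over second) with SE for 8 genes in the 6 comparisons of classes, fitted with the library as a block in 4 libraries; filled points pass an edgeR adjusted p of 0.05. BMP4 and ID2 are lower in epithelial than in mesenchymal cells, and 7 of 8 genes are higher in mesenchymal than in immune cells.

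The animals were then compared within each class, which asks how far the set differed between the warm-digested LG252 and the cold-digested LG255. In epithelial cells, with 455 to 885 cells in each library, BMP2 and ID1 were higher in LG252 and the other members did not pass. Of 7 genes tested, these 2 passed, where 33.9% of all 12499 genes did. BMP2 averaged 58.1 ± 3.69 CPM in LG252 and 6.38 ± 1.85 CPM in LG255 (SD, n = 2 each), at a log2 difference of 3.36 (SE 0.24, edgeR adjusted p = 1.49e-05). ID1 averaged 192 ± 14.1 CPM in LG252 and 21.0 ± 4.93 CPM in LG255 (SD, n = 2 each), at a log2 difference of 3.34 (SE 0.22, edgeR adjusted p = 1.07e-05). Neither gene's libraries overlapped between the animals, and all 13 alternatives kept both calls, at 3.17 to 3.52 for BMP2 and 3.13 to 3.45 for ID1. BMP7 (0.36, SE 0.22), BMPR1A (0.27, SE 0.24) and ID3 (0.22, SE 0.24) had edgeR adjusted p between 0.224 and 0.518. BMPR2 stood at 0.56 (SE 0.20, edgeR adjusted p = 0.0529), just outside the threshold, and passed with doubled gates (adjusted p = 0.0397), with cells of several gates kept (adjusted p = 0.0469) and with no filter (adjusted p = 0.0471). ID2 stood at -0.50 (SE 0.20, adjusted p = 0.0721). Without LG252 replicate 1, 4 genes passed, with BMP4 (3.46, adjusted p = 0.00474) and BMPR2 (0.65, adjusted p = 0.0291) besides BMP2 and ID1. With all libraries BMP4 was too sparse to test, with 20 epithelial UMIs in LG252 and 3 in LG255.

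The shares of cells showed the same order once every cell had been thinned to 1000 UMIs, which left out 0 and 2 epithelial cells of LG252 and 3 and 10 of LG255. ID1 was then found in 13.7% and 15.7% of epithelial cells in LG252, against 3.32% and 2.17% in LG255. Before thinning the shares were 63.8% and 54.4% in LG252, against 14.5% and 12.8% in LG255, in the same order. BMP2 was found in 4.61% and 4.53% of thinned epithelial cells in LG252, against 0.664% and 0.343% in LG255. Unthinned shares of BMP2 were 39.9% and 29.4% in LG252, against 5.05% and 4.29% in LG255. As a background, 3 of the 1782 immune cells of LG252 replicate 1 had a UMI of BMP2 before thinning (0.168%) and none of 1749 did after it. ID3 was in 29.2% and 32.5% of thinned epithelial cells in LG252 and in 27.9% and 32.3% in LG255, with no separation.

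ID1 was lower in LG255 in the other classes as well, on few LG255 transcripts. In endothelial cells 1 of 4 tested members passed (15.9% of all genes), ID1 at 3.01 (SE 0.73, edgeR adjusted p = 0.0260), from 236 UMIs in LG252 and 16 in LG255. The pooled ratio of CPM was 4.77 (95% counting interval 2.88 to 8.49). Without LG252 replicate 1, a library of 16 endothelial cells with 1469 CPM of immune markers, the value was 1.92 (adjusted p = 0.00558). Without LG255 replicate 1 the adjusted p was 0.261, and without LG252 replicate 2 ID2 and ID3 passed too. In immune cells 1 of 4 tested members passed (1.57% of all genes), again ID1, with 1164 UMIs in LG252 and 2 in LG255. The pooled ratio of CPM was 14.5 (95% counting interval 4.01 to 120, edgeR adjusted p = 0.0339). The adjusted p was 0.0640 without LG252 replicate 1, 0.184 without LG255 replicate 1 and 0.157 without LG255 replicate 2. ID3 passed without LG252 replicate 1 (1.45, adjusted p = 0.0466) and without LG252 replicate 2 (1.63, adjusted p = 0.00766).

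In mesenchymal cells none of 8 tested members passed in edgeR, where 0.398% of all 7530 genes did, although 2 had an unadjusted p under 0.05 and DESeq2 called 2. Both were ID genes. ID1 had 3887 UMIs in LG252, against 6 in LG255, a pooled ratio of CPM of 81.2 (95% counting interval 37.3 to 221). Its log2 fold change was 5.95 (SE 0.98, edgeR adjusted p = 0.0709). ID3 averaged 988 ± 187 CPM in LG252 and 238 ± 14.02 CPM in LG255 (SD, n = 2 each), at 2.24 (SE 0.35, edgeR adjusted p = 0.0663). Leaving out LG252 replicate 1 or LG252 replicate 2 made both pass, with ID1 at 6.69 and 4.39. Leaving out LG255 replicate 1 or LG255 replicate 2 raised the adjusted p of ID1 to 0.423 and 0.673. BMP2 (0.99, SE 0.62), BMP4 (1.07, SE 0.87), BMP7, BMPR1A, BMPR2 and ID2 had adjusted p of 0.570 or more, on LG255 sums of 19 and 106 cells.

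An interaction term asked whether the animal difference itself was unlike in different classes, an analysis added after the data had been seen. No member passed for mesenchymal, endothelial or immune cells against epithelial cells, where 0.339%, 0.041% and 0.359% of all genes did. DESeq2 called none either, and 3, 2 and 1 members had an unadjusted p under 0.05 in edgeR. ID3 had the smallest p: its LG252 over LG255 difference was greater in mesenchyme than in epithelium by 2.20 (SE 0.60, edgeR adjusted p = 0.112). ID1 stood at 2.62 (SE 0.93, adjusted p = 0.355) and BMP2 at -2.30 (SE 0.78, adjusted p = 0.306) in the same term. Without LG252 replicate 2, BMP2 (-2.95, adjusted p = 0.0105) and ID3 (2.16, adjusted p = 0.0460) passed, and without LG252 replicate 1, ID1 did (3.29, adjusted p = 0.0141).

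Genes that respond to warm handling of tissue moved with the same animals. Of a list of 8 (FOS, JUN, JUNB, EGR1, ATF3, HSPA8, DNAJB1, DNAJA4), 7 were measured. Their summed level in epithelial cells was 6519 and 5031 CPM in LG252, against 2401 and 2424 CPM in LG255. In mesenchymal cells it was 7957 and 5047 CPM in LG252, against 1294 and 839 CPM in LG255. In endothelial cells it was 10217 and 3787 CPM in LG252, against 539 and 777 CPM in LG255, and in immune cells 4962 and 4235 CPM against 2474 and 1412 CPM in the same order of animals. The LG252 libraries were above both LG255 libraries in each class, as they were for ID1, and its part in the ID1 and BMP2 values was not tested. Mitochondrial transcripts had a median share of 0.797% and 1.16% of a cell's UMIs in LG252 and 4.82% and 3.79% in LG255. Leaving out cells above 20% kept the ID1 and BMP2 calls in epithelium.

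**Figure D3:**
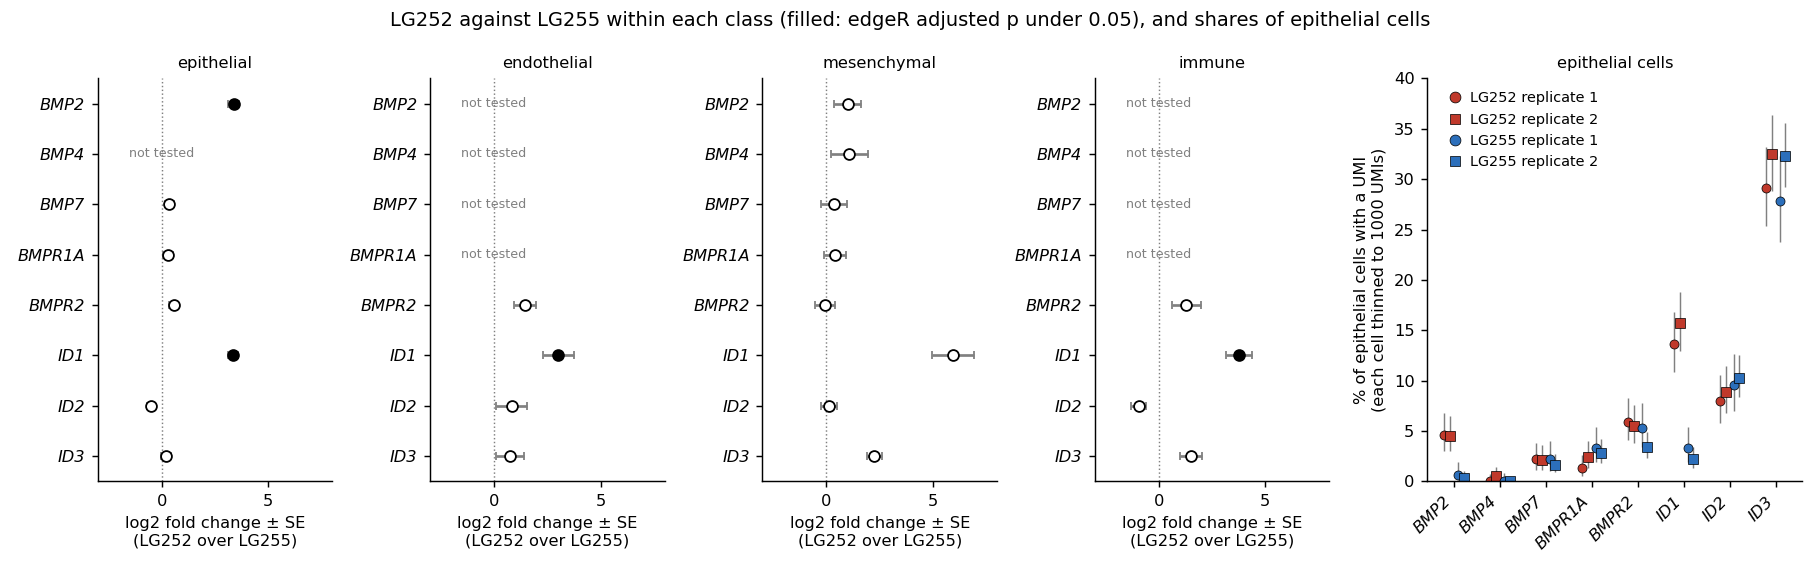
Left panels: log2 fold changes of LG252 over LG255 with SE in each class (2 libraries per animal; filled points pass an edgeR adjusted p of 0.05). Right panel: share of epithelial cells with a UMI after thinning to 1000 UMIs, with 95% exact intervals, LG252 in red left of LG255 in blue; ID1 and BMP2 separate the animals and the other genes overlap or nearly so.

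The wider pathway was read from a list of 45 further genes, of which 44 were in the tables. Between epithelial and mesenchymal cells 13 of 23 tested genes passed (31.6% of all genes), 11 of them lower and 2 higher in epithelium. The list median was -1.06, against -0.01 over all genes. Of the secreted antagonists, 3 were lower and 1 higher in epithelium. CHRD (chordin, which like noggin traps BMP ligands) was lower in epithelium by -4.19 (SE 0.64, edgeR adjusted p = 2.44e-05), FSTL1 by -4.53 (SE 0.42) and the follistatin relative FSTL3 by -2.83 (SE 0.63). The ligands BMP5 (-7.41, SE 0.53) and BMP6 (-2.84, SE 0.46) and the type I receptor ACVR1 (-1.06, SE 0.29) were also lower in epithelium.

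The homeobox targets MSX1 and MSX2 went the same way as BMP4. MSX1 had 3 UMIs in epithelium and 889 in mesenchyme, a pooled ratio of mesenchymal to epithelial CPM of 1387 (95% counting interval 473 to 6738). MSX2 was lower in epithelium by -1.75 (SE 0.57, edgeR adjusted p = 0.0199), although LG252 replicate 1 had 20.5 CPM in epithelium and 5.52 CPM in mesenchyme. The inhibitory SMAD7 (-1.60, SE 0.36) and ATOH8 (-1.36, SE 0.34), a transcription factor gene, passed as well, as did the co-receptor ENG (-3.51, SE 0.57). SMAD9 was higher in epithelium (1.97, SE 0.46), and SOSTDC1, an antagonist of BMP and WNT signals in mouse teeth, passed at 0.96 (SE 0.35, edgeR adjusted p = 0.0367). SOSTDC1 stood at 76.8 and 86.4 CPM in LG252 epithelium and 113 and 184 CPM in LG255 epithelium, and at 26.5, 81.7, 91.8 and 168 CPM in the mesenchyme of the same libraries.

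Among the other classes, ENG, a co-receptor that marks endothelium, averaged 464 CPM in endothelial cells and 14.6 CPM in mesenchymal cells (4.59, SE 0.50, edgeR adjusted p = 6.16e-07), the only 1 of 8 genes called in that comparison to be higher in endothelium. BMP5, CHRD and FSTL3 had no UMI in endothelial cells, which puts mesenchyme at least 11.3-fold, 5.47-fold and 18.4-fold higher than 3 pooled UMIs. Between epithelial and endothelial cells 3 of 23 genes were higher and 4 lower in epithelium. The higher ones were SOSTDC1 (3.28, SE 0.55), NBL1 (3.63, SE 0.98, on 1 endothelial UMI) and SMAD9 (2.74, SE 0.84, on 2 endothelial UMIs). The lower ones were ENG (-8.11, SE 0.54), BMP6 (-3.15, SE 0.62), FSTL1 (-2.56, SE 0.79) and SMAD1, a signal carrier of the pathway (-1.16, SE 0.41, edgeR adjusted p = 0.0409). Against immune cells, 10 of 23 genes were higher in epithelium, 9 in endothelium and 16 in mesenchyme, and none was lower. The shares of all genes that passed stand above for each comparison.

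**Figure D4:**
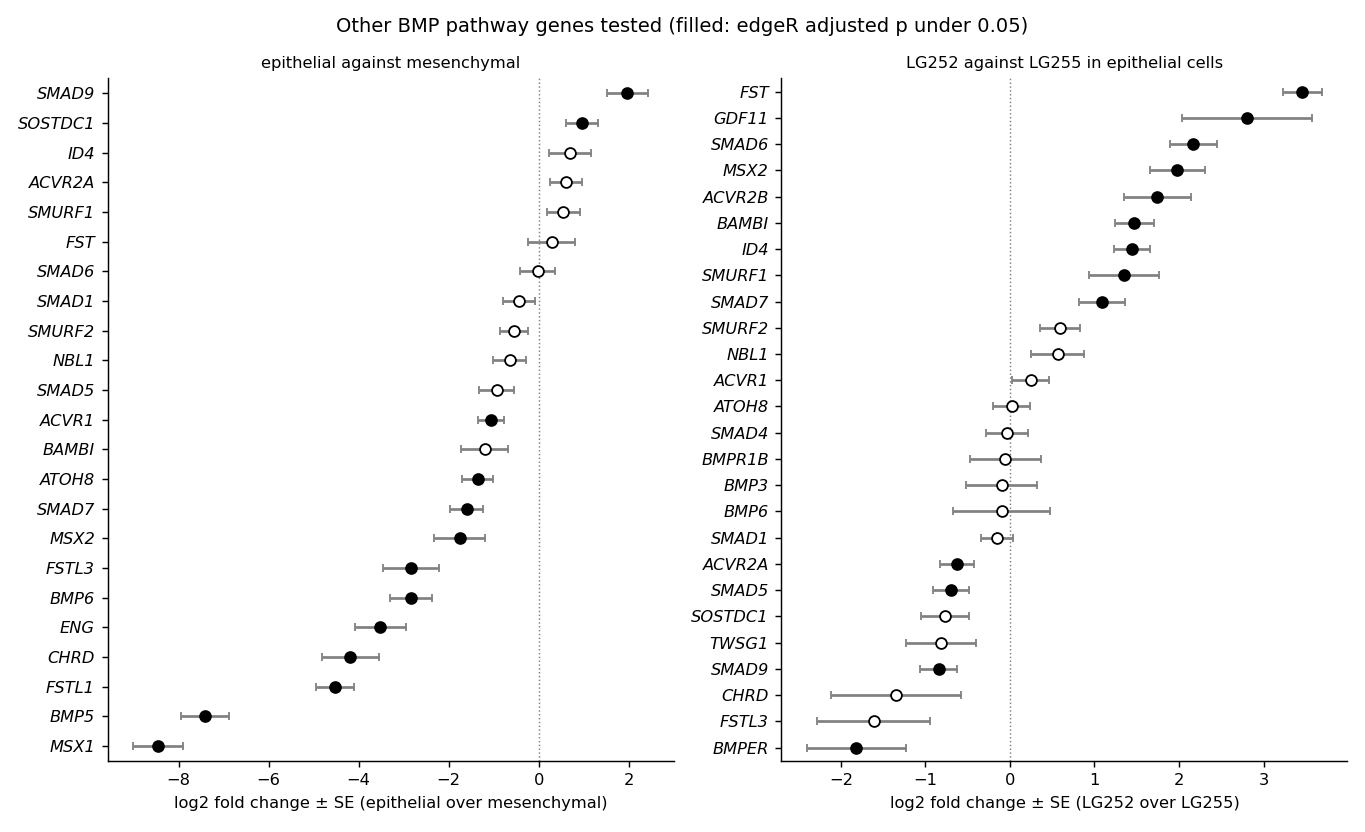
Log2 fold changes with SE of the further pathway genes tested, for epithelial over mesenchymal cells (left, 23 genes, library as a block) and LG252 over LG255 in epithelial cells (right, 26 genes, 2 libraries per animal); filled points pass an edgeR adjusted p of 0.05. On the left 11 genes are lower and 2 higher in epithelium, and on the right 9 are higher and 4 lower in LG252.

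In epithelial cells of LG252 against LG255, 13 of 26 further pathway genes passed (33.9% of all genes), 9 higher and 4 lower. The list median was -0.01, against -0.02 over all genes. FST (follistatin, which binds activins and some BMPs) had 52.8 and 51.7 CPM in LG252, against 5.32 and 4.94 CPM in LG255 (3.46, SE 0.23, edgeR adjusted p = 1.07e-05). SMAD6, an inhibitory SMAD, had 14.1 and 16.6 CPM in LG252, against 4.14 and 3.34 CPM in LG255 (2.17, SE 0.28, edgeR adjusted p = 0.000333). The other higher genes were SMAD7, an inhibitory SMAD (1.09, SE 0.27), the pseudoreceptor gene BAMBI (1.47, SE 0.23) and the ubiquitin ligase gene SMURF1 (1.35, SE 0.41). With them came the targets ID4 (1.44, SE 0.21) and MSX2 (1.98, SE 0.32), the type II receptor ACVR2B (1.75, SE 0.40) and GDF11, a ligand with 24 UMIs in LG252 and 3 in LG255. The lower group was SMAD5 (-0.70, SE 0.21), SMAD9 (-0.84, SE 0.22), ACVR2A (-0.63, SE 0.20) and the secreted BMP-binding protein gene BMPER (-1.81, SE 0.58). SOSTDC1 stood at -0.77 (SE 0.29, adjusted p = 0.0620). DESeq2 called 9 of the 26. In mesenchymal cells none of 20 passed in edgeR, with 2 at an unadjusted p under 0.05 and 1 called by DESeq2.

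Dental-type cells were set against their neighbours in the same class, to ask whether the set marks the tooth-forming parts. Dental-type epithelial cells had at least 2 of the 6 genes SP6, DLX3, FOXI3, IRX1, ISL1 and TBX1 detected, and other epithelial cells none. The dental-type cells numbered 94, 150, 32 and 59 in LG252 replicates 1 and 2 and LG255 replicates 1 and 2, and the other cells 216, 226, 291 and 573. A rule of detection favours deep cells: the dental-type cells had medians of 15476, 10936, 9999 and 9590 UMIs, against 9758, 6690, 5593 and 8572 in the other cells. No member passed among 7 tested in edgeR, where 2.17% of all 10414 genes did. DESeq2 called none, and 3 had an unadjusted p under 0.05. ID1 was lower in dental-type cells in 4 of 4 libraries, at 135, 166, 13.7 and 13.2 CPM against 213, 199, 27.8 and 19.5 CPM (-0.65, SE 0.22, edgeR adjusted p = 0.160). BMP7 stood at 22.6, 34.7, 30.0 and 23.2 CPM in dental-type cells and at 15.2, 18.2, 19.96 and 17.04 CPM in other cells (0.53, SE 0.25, adjusted p = 0.377). ID3 was lower in 4 of 4 libraries (-0.43, SE 0.18, adjusted p = 0.308). BMP2 (0.13), BMPR1A (-0.03), BMPR2 (0.15) and ID2 (-0.26) had adjusted p between 0.689 and 0.982.

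Of the further pathway genes, 3 of 22 passed in the dental-type epithelium (2.17% of all genes). FSTL3 was higher by 2.102 (SE 0.30, edgeR adjusted p = 6.97e-05) and MSX2 by 1.47 (SE 0.30, adjusted p = 0.00519), both in 4 of 4 libraries. BMPR1B, a type I receptor, was lower by -1.61 (SE 0.40, adjusted p = 0.0300), also in 4 of 4 libraries.

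Dental-type mesenchymal cells had a UMI of MSX1 or LHX8 and none of DPT or MFAP5, and connective-type cells the reverse. They numbered 12, 259, 13 and 34 dental-type and 223, 206, 3 and 23 connective-type cells in the same order of libraries. LG255 replicate 1 was left out of the fit for its 3 connective-type cells. In the 3 fitted libraries the dental-type cells had medians of 1503, 4954 and 3502 UMIs, against 1842, 1746.5 and 3290 in connective-type cells. MSX1 is itself a listed target of the pathway, and how far this choice shaped the levels of other targets was not tested. ID1 had 806 and 1934 CPM in dental-type cells of LG252 and 7.53 CPM in those of LG255 replicate 2, against 197 and 352 CPM and none in connective-type cells of the same libraries. The LG255 value was 1 UMI. ID1 was thus 1 of 7 members to pass (5.70% of all 5089 genes), at 1.98 (SE 0.50, n = 3 libraries, edgeR adjusted p = 0.00903). The call was lost without LG252 replicate 1 (2.38, adjusted p = 0.0611), LG252 replicate 2 (1.83, adjusted p = 0.998) or LG255 replicate 2 (1.96, adjusted p = 0.0915). No filter on low counts (1.82, adjusted p = 0.150), removing the highest doublet scores (1.53, adjusted p = 0.177) and no library block (2.15, adjusted p = 0.754) lost it too. BMP4 (1.05, SE 0.53) and BMP7 (1.16, SE 0.61) had adjusted p of 0.379 and 0.409. BMP4 had 0 and 123 CPM in dental-type cells of LG252 and 52.7 CPM in those of LG255 replicate 2. Connective-type cells of the same libraries had 30.5, 36.3 and 39.7 CPM. The 0 came from 12 cells, where 3 UMIs equal 127 CPM, so that library gives no direction. ID2 stood at 0.14 (SE 0.41, adjusted p = 0.964). It had 764 and 1556 CPM in dental-type cells of LG252 and 670 CPM in those of LG255 replicate 2, against 599, 635 and 973 CPM in connective-type cells. BMPR1A (-0.29), BMPR2 (0.40) and ID3 (0.21) had adjusted p between 0.869 and 0.945, and BMP2 was not tested.

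Of 16 further pathway genes tested between the mesenchymal types, with the gate gene MSX1 set aside, 4 were higher and 1 lower in dental-type cells. Of all genes, 5.70% passed. SOSTDC1 (2.77, SE 0.55), BAMBI (2.20, SE 0.50) and MSX2 (2.85, SE 0.57) were higher, as was BMP5 (2.05, SE 0.52). CHRD (-2.31, SE 0.60) had lower values in each of the 3 libraries. In LG252 replicate 1 the dental-type value comes from 12 cells, where 3 UMIs equal 127 CPM. CHRD reached at most 91.6 CPM in the mesenchymal cells of any library, which leaves LG252 replicate 1 without a clear direction. The edgeR adjusted p of the 5 genes lay between 0.000898 and 0.0127.

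**Figure D5:**
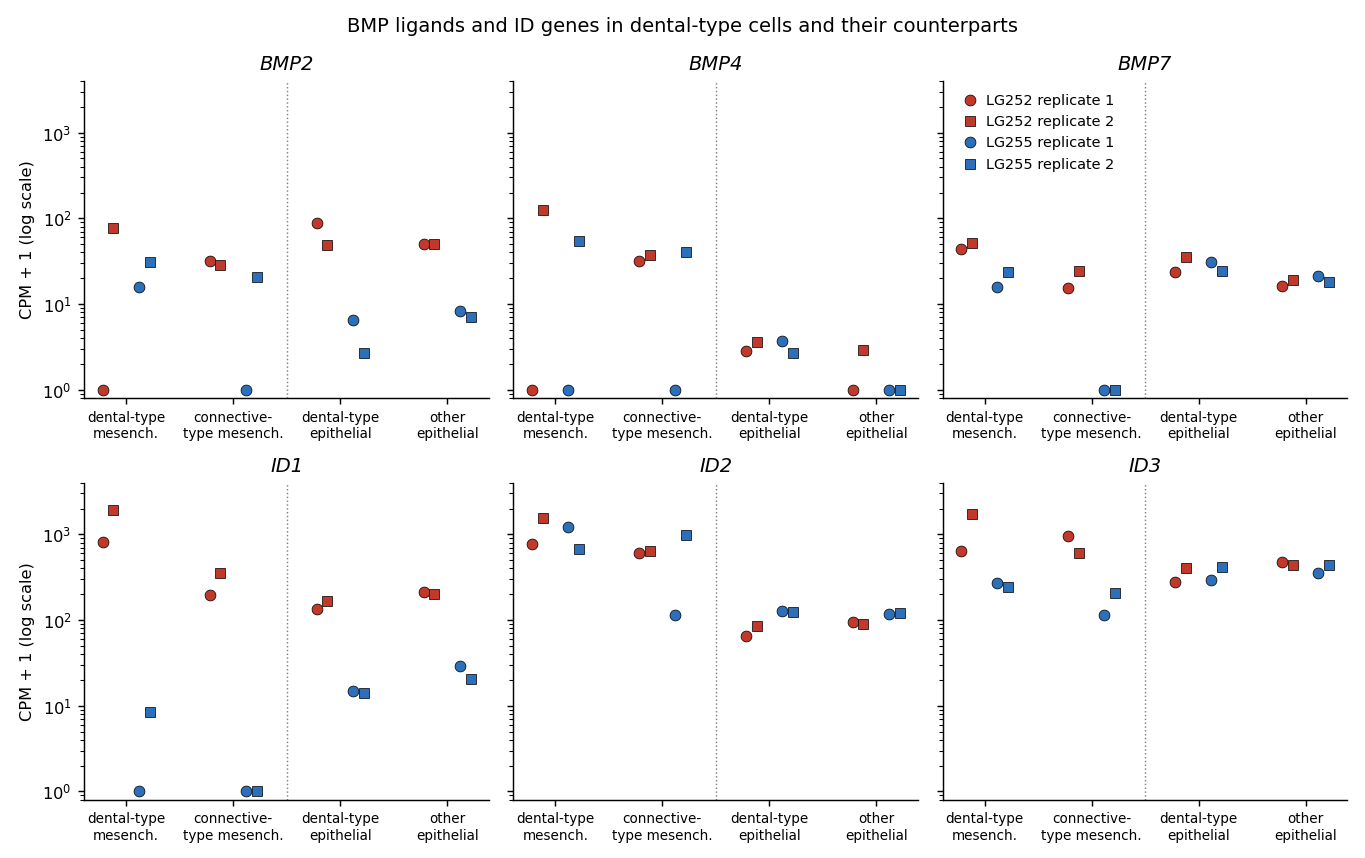
Level of 6 genes on a log axis (CPM + 1) in dental-type and connective-type mesenchymal cells (left of the dotted line) and in dental-type and other epithelial cells (right of it), 1 point per library, LG252 in red and LG255 in blue. ID1 reaches 806 and 1934 CPM in the dental-type mesenchyme of LG252; the connective-type point of LG255 replicate 1 rests on 3 cells and was not in the fit.

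The genes whose levels most resembled each member were found over the 16 sums of library and class, by Pearson's r of log2(CPM + 10) among 5028 named genes with a mean of at least 20 CPM. These values describe 16 points that share 4 libraries and differ in depth, so no test applies. ID1 was most like UBB (r = 0.91), a polyubiquitin gene, then SLC38A2 and CHKA (both 0.89). BMP2 was most like RNH1 (0.87) and TNFRSF12A (0.84), BMP4 like NHERF2 (0.84) and GUCY1B1 (0.82), and BMP7 like LRIG3 (0.95) and ROBO1 (0.91). BMPR1A was most like BOC (0.95) and TFAP2A (0.93), and BMPR2 like RASSF8 (0.94) and CHD9 (0.94). ID2 was most like TMEM263 (0.90) and RABAC1 (0.88), and ID3 like PEX19 (0.87) and ZFP36L2 (0.85).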

How the data were processed

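Transcripts of single cells were measured in 4 libraries with a 3′ droplet kit, per the labels' protocols. The deposited files hold UMI counts, whole numbers for each gene and barcode without normalisation, made by the authors with Cell Ranger 7.1.0 per the file headers, while the submitters' processing notes name version 2.1.0. The series' design text names the assembly MPM_Emac_v1.0. How cells were called, whether intronic reads counted and which annotation release was used are not given in the sources used here. Positions come from the RefSeq gene table of the same assembly, which held all 9 members, and no sequence was used.

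Barcodes with at least 200 genes were gated by marker UMIs as described, cells of several gates were left out, and the counts of a class were added up within each library, with at least 10 cells per sum. Total UMIs per library ran from 4535439 to 20754804. CPM are UMIs scaled to a common class total. The main test was edgeR's quasi-likelihood F test, version 4.0.16 (TMM scaling, filterByExpr, Benjamini-Hochberg adjustment over all genes tested, threshold 0.05), with the library as a block for class comparisons and without a replicate term between animals. The SE was obtained as the size of the log2 fold change divided by the root of its F value. Intervals of single ratios and shares are exact at 95% and cover counting error. Doublets were left in: Scrublet in scanpy 1.11.5 called 19 cells by its own threshold, so an alternative removed the highest scores at 0.8% per 1000 cells (207 cells). Alternatives were the size factors and Wald test of DESeq2 1.42.0, no filter, doubled gates, cells of several gates kept, a mitochondrial maximum of 20%, thinning to 1000 UMIs, each library left out, and the block added or removed. The interaction terms were added after the data had been seen. Scripts were tested on simulated data. The rule for named genes took each member tested and, of 45 further pathway genes, those that passed; those called against immune cells, and members that did not pass between classes, are given as counts or in plots. Another gene meant for that list is not reported here. Members, lists and tests were chosen with earlier results of these data known. LAPTM5 and CD3E, also meant for the immune gate, and DAND5 of the pathway list were not found under these names and were not used here.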

Additional observations from a re-analysis of the deposited data

Results flagged for a closer look

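The cells that passed no gate, 2526 of 8531, enter no comparison above, and 8 members had more than 3 UMIs in them, the level that a count of 0 allows. Their pooled levels were 15.6 CPM for BMP2, 3.44 CPM for BMP4, 8.74 CPM for BMP7, 11.0 CPM for BMPR1A and 35.1 CPM for BMPR2. ID1 stood at 155 CPM, ID2 at 240 CPM and ID3 at 382 CPM in the same cells. NOG had no UMI there either. These cells came mostly from LG252 replicate 1, with 1567 in LG252 replicate 1, 540 in LG252 replicate 2, 198 in LG255 replicate 1 and 221 in LG255 replicate 2. Their class is not given by the gates, and the values are a description.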

How the results depend on the processing

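Every alternative was run for every comparison that allowed it, and 1317 values of single members were compared with the reported ones. Of these, 1214 stayed on the same side of the threshold, 70 no longer passed and 33 newly passed, and 67 changed sign without passing in either setting. No called value reversed. Epithelial against mesenchymal cells gave 2 members under all alternatives, and dental-type against other epithelial cells gave 0.

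Counts of members that passed moved by more than 1.5 times as follows, and the cause was not tested. Epithelial against endothelial cells gave 3 with doubled gates, 1 with thinned cells and 3 with no library block, against 5. Thinning gave 3 for epithelial against immune cells (against 6), 1 for endothelial against mesenchymal cells (against 3), 2 for endothelial against immune cells (against 5) and 3 for mesenchymal against immune cells (against 7). Thinned sums hold fewer UMIs, and 5 members passed their filter, against 8. The DESeq2 Wald test gave 1 for endothelial against mesenchymal cells, and no library block gave 3 for endothelial against immune cells. Between the animals, no filter gave 4 in epithelium (against 2), 2 in mesenchyme (against 0), 2 in immune cells (against 1) and 1 for the mesenchymal minus epithelial term (against 0), where doubled gates also gave 1. In mesenchyme the DESeq2 Wald test gave 2, thinned cells 2 and keeping cells of several gates 1. Keeping those cells gave 0 in endothelium (against 1), and thinning gave 0 in immune cells. Dental-type against connective-type mesenchyme gave 0 with no filter, without the highest doublet scores and with no library block, against 1.

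Leaving out each library in turn gave 2 to 5 members for epithelial against endothelial, 3 to 4 for epithelial against immune, 1 to 3 for endothelial against mesenchymal, 4 to 6 for endothelial against immune and 3 to 6 for mesenchymal against immune cells. It gave 2 to 4 between the animals in epithelium, 0 to 2 in mesenchyme, 0 to 3 in endothelium, 0 to 2 in immune cells, 0 to 2 for the mesenchymal minus epithelial term and 0 to 1 for the mesenchymal types. Without a library an animal can be 1 sum, which is then assumed to vary like the other.

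With the replicate number as a block, mesenchyme gave 1 member (ID1, 6.20, adjusted p = 0.0154) and the other classes kept their counts. The labels do not say whether same-numbered libraries were handled together. Deviations of same-numbered libraries correlated at -0.084 in epithelial, -0.029 in mesenchymal, -0.122 in endothelial and -0.086 in immune cells, which cannot decide it. The endothelial comparison of the animals could not be fitted with doubled gates or thinned cells, which leave under 10 cells in a sum. The immune one could not be fitted with doubled gates. Sums under 10 cells were also left out of the class comparisons. With thinned cells these therefore lack the endothelial sum of LG255 replicate 2, which kept 7 cells. Size factors of DESeq2 moved the median of all genes by -0.23 for epithelial against endothelial and -0.17 for epithelial against immune cells, where BMPR2 (0.86, adjusted p = 0.0580) and ID3 no longer passed. Depth limits the endothelial sums and the mesenchymal and immune sums of LG255 most.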
